A study of Mus musculus with 6 samples.

Results

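The 32 genes described here make cholesterol and unsaturated fatty acids, control that synthesis, or move and remove sterols. They were taken by gene symbol from the deposited table, where they account for 183 of 141196 transcripts and 32 of 52962 genes. RNA of Fmr1 knockout (KO) and wild type (WT) mice of the C57BL/6 strain was compared, with 3 KO and 3 WT samples of brain cortex. Age, sex and the knockout allele are not given in the labels used here. Poly(A) RNA was read directly on a nanopore, without copying to cDNA, so each read stands for 1 molecule and carries an estimate of its poly(A) tail. Fmr1 encodes FMRP, an RNA-binding protein of neurons, and the series compares poly(A) tails with and without it.

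Cholesterol is built from acetyl-CoA through mevalonate, which is turned into isoprenoids, then squalene, and then through a chain of sterols. The SREBP transcription factors switch these genes on when sterol falls: SCAP carries SREBP out of the endoplasmic reticulum, and the INSIG proteins hold SCAP back when sterol is plentiful. Brain cholesterol is made locally because the blood-brain barrier keeps out plasma lipoproteins, much of it goes into myelin, and neurons dispose of the excess through 24-hydroxycholesterol. A poly(A) tail is added to an mRNA at its 3′ end, and its length changes as the mRNA ages or is stored and translated.

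Reads with a tail numbered 3540416, 2404074 and 3443862 in KO libraries 1 to 3, and 3214196, 3621378 and 3849077 in WT libraries 1 to 3. Fmr1 itself was at 10.9, 11.8 and 8.22 CPM in KO libraries and 41.7, 45.1 and 46.4 CPM in WT libraries, which fits the labels. CPM is the tail read count scaled by library total and TMM factor, and because a read is a molecule it is not scaled by length. Replicate libraries differed by more than counting noise. Cortex is a mixture of cells, and summed oligodendrocyte markers (8 genes) spanned 3844 to 4145 CPM (without the TMM factor) in KO and 3938 to 4604 in WT, while summed astrocyte markers (7 genes) spanned 1917 to 2037 in KO and 1933 to 2244 in WT. The highest sum of both lists was in WT library 1. Choroid plexus markers (4 genes) summed to 13.4 to 26.6 in KO and 34.2 to 841 in WT. Excitatory neuron markers (4 genes) summed to 4210 to 4581 in KO and 3732 to 4229 in WT, all 4 above 0 by sign and 1 past the threshold (Nrgn; edgeR, adjusted p = 0.0350). Inhibitory neuron markers (3 genes) summed to 482 to 516 in KO, below the 525 to 571 of WT, with all 3 below 0 by sign, 0 past the threshold and 0 at an unadjusted p under 0.05 (edgeR). Each sample is bulk tissue, so fewer cells of a type and less RNA per cell cannot be told apart.

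All 32 genes passed the filters of both tests. They held 51580 tail reads over the 6 libraries, and the fewest for a gene in a library was 25, for Lss in KO library 2. Of the 183 transcripts, 83 had a read and 100 had none. Most reads belonged to Scd2, Cyp46a1, Hmgcs1, Srebf2 and Fads1. The 44 transcripts with enough reads for the tail test carried 98.7% of the genes' reads.

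Among the 32 genes the abundance of 1, Scd1, fell past the threshold in KO. The fitted log2 change was below 0 for 26 of the 32 genes and above 0 for 6, with a median of -0.08, while the median over all 12543 genes tested was -0.00 and 50.6% of them were below 0. After adjustment over all genes, 1 of the 32 passed the threshold of 0.05, and it was lower in KO (edgeR quasi-likelihood test, Benjamini-Hochberg). Over all genes 1.03% passed, 0.454% lower and 0.574% higher. At an unadjusted p under 0.05 there were 8 of the 32 (25%), of which 7 were lower, against 12.9% of all genes. On CPM, KO and WT libraries did not overlap for 4 genes lower in KO and 2 higher in KO, which is 18.75% of the set against 17.3% of all genes (8.16% lower, 9.12% higher). On the deposited abundance in RPM they did not overlap for 8 genes lower in KO and 1 higher. The share of all genes on that scale was not counted, so the RPM counts, or an RPM separation of 1 gene, cannot be read as particular to the set. The summed level of the 32 genes was 2483, 2555 and 2431 CPM in KO libraries and 2763, 2644 and 2607 CPM in WT libraries. Scd2 alone made up 27.9% of the WT sum. Without Scd1 and Scd2 the sums were 1754, 1789 and 1758 CPM in KO, below the 1814, 1823 and 1857 CPM in WT. No test was run on these sums. How often sums over as many other genes separate in this way was not counted, so no shift of the pathway is read from them.

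**Figure D1:**
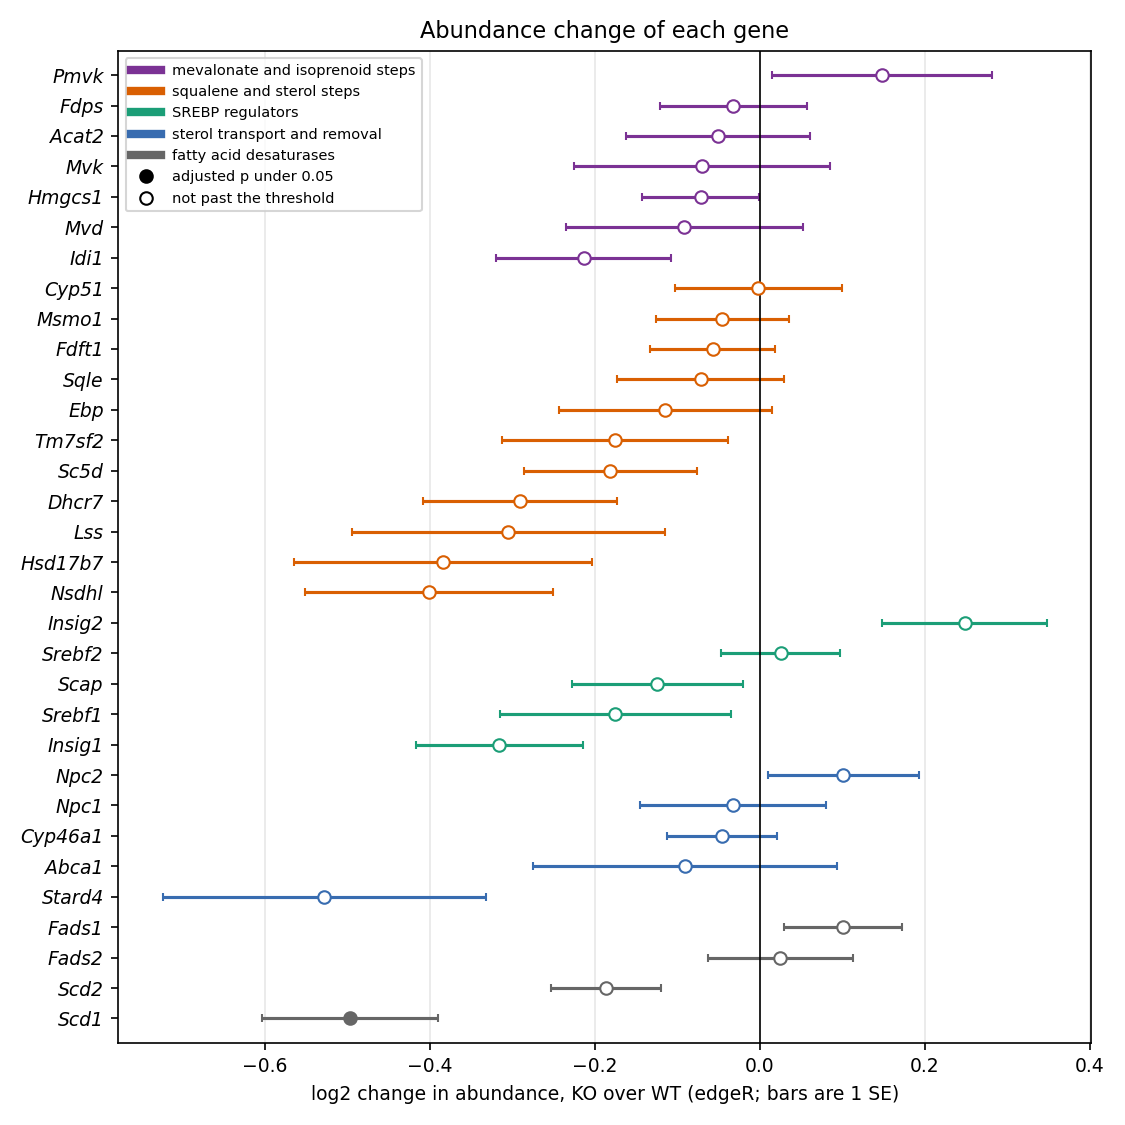
Fitted log2 change in abundance of each of the 32 genes, KO over WT, with bars of 1 SE from edgeR. Colours give the role group, and genes are ordered within it. All 11 genes of the squalene and sterol steps lie at or left of 0, and the only filled point, past the threshold, is Scd1 at -0.50.

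Scd1, the stearoyl-CoA desaturase that makes oleate and palmitoleate from saturated fatty acids, was the gene that passed. It had 60.7, 78.9 and 65.4 CPM in KO libraries, against 113, 94.8 and 79.9 CPM in WT libraries. Every KO library was below every WT library, although KO library 2 and WT library 3 nearly met. Its mean was 68.3 ± 9.42 CPM in KO and 95.8 ± 16.5 CPM in WT (SD, n = 3 each), and it fell by 0.50 ± 0.11 on the log2 scale (SE; edgeR, adjusted p = 0.0169). All its reads were of 1 transcript, ENSMUST00000041331.3, which was also the only transcript of the set to pass (log2 -0.50; edgeR, adjusted p = 0.0259, where 0.517% of 19933 transcripts passed, 0.261% lower and 0.256% higher). The gene's adjusted p was 0.160 without KO library 1, 0.102 without KO library 3 and 0.0972 with limma on RPM, and from 2.07e-05 to 0.0383 under the other alternatives. The transcript's adjusted p was 0.247, 0.184, 0.0674 and 0.0698 without KO library 1, KO library 3, WT library 1 and WT library 2, and 0.0597 with DESeq2. WT library 1, with the highest oligodendrocyte and astrocyte sums, also had the most Scd1; without that library the gene's log2 change was -0.37 (edgeR, adjusted p = 0.0307). The part of glial, neuronal or choroid plexus RNA in this or any other difference was not tested. In the authors' deposited table, Scd1 had a log2 of 0.41 with p = 0.00246. That table's sign was read as WT over KO because Fmr1 is positive there. Scd1 was the only one of 97 transcripts of these genes with p under 0.05 in the authors' deposited table, where 1.22% of all transcripts with a p-value were under it.

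Scd2, the main stearoyl-CoA desaturase of brain and the closest relative of Scd1, was the most abundant of the 32. It had 668, 687 and 607 CPM in KO libraries, against 836, 726 and 670.0 CPM in WT libraries. The groups overlapped on CPM, since KO library 2 lay above WT library 3. On RPM they did not, with 681, 727 and 628 RPM in KO libraries and 903, 786 and 730 RPM in WT libraries. Its log2 change was -0.19 ± 0.07 (SE; edgeR, unadjusted p = 0.00943, adjusted p = 0.212), so it did not pass the test, and without WT library 1 it was -0.09. How the authors assigned reads that match both desaturases was not given in the sources used here. Both mRNAs are shown around the poly(A) signal that precedes the tail, as 30 bases from GENCODE M21 on GRCm38 with the signal hexamer in capitals. Their annotated ends lie 21 bases (Scd1) and 22 bases (Scd2) past the hexamer, a few bases beyond the stretch printed.
Scd1 end (chr19:44394464-44394493, - strand): gtatttgttcctAATAAAagtggatctggt
Scd2 end (chr19:44306825-44306854, + strand): gtgtttgttcatAATAAAatgaaatgatct
The other desaturases, which put double bonds into polyunsaturated fatty acids, did not pass the test. Fads1, the delta-5 desaturase, had 139, 135 and 130.0 CPM in KO libraries and 129.7, 126 and 121 CPM in WT libraries, so its KO libraries were all above its WT libraries by a small margin (log2 0.10 ± 0.07; edgeR, adjusted p = 0.609), but on RPM they overlapped (log2 0.04 with limma). Fads2, the delta-6 desaturase, averaged 83.2 ± 2.71 CPM in KO and 81.9 ± 9.62 CPM in WT (SD, n = 3 each). On RPM its sign turned, with 93.6, 98.1 and 96.8 RPM in KO libraries and 112, 109 and 97.1 RPM in WT libraries, which overlapped (log2 -0.14 with limma).

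**Figure D2:**
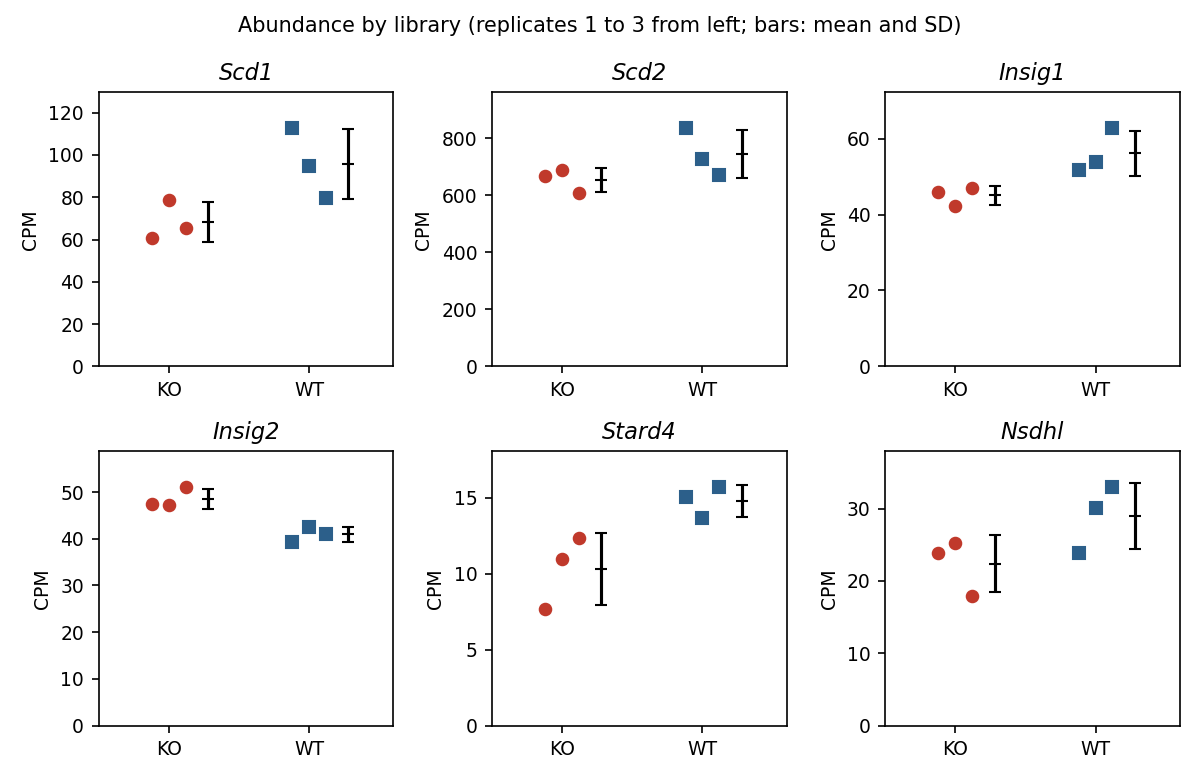
CPM of 6 genes in each library, KO left and WT right of each panel, with mean and SD beside the points and axes that start at 0. KO and WT points do not overlap for Scd1, Insig1, Insig2 and Stard4, and they overlap for Scd2 and Nsdhl.

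None of the 5 SREBP regulators passed the test in either direction, with 3 lower and 2 higher by sign. The pair of INSIG genes had opposite signs. Insig1, the sterol-responsive member that anchors SCAP, had 46.0, 42.2 and 47.0 CPM in KO libraries and 51.8, 53.8 and 62.9 CPM in WT libraries. Insig2, its relative with the same anchoring role, had 47.4, 47.2 and 51.1 CPM in KO libraries and 39.3, 42.6 and 41.0 CPM in WT libraries. Neither gene's groups overlapped, with Insig1 below and Insig2 above its WT range in every KO library. The log2 change of Insig1 was -0.32 ± 0.10 (SE; edgeR, unadjusted p = 0.00443, adjusted p = 0.153), and that of Insig2 was 0.25 ± 0.10 (SE; edgeR, unadjusted p = 0.0198, adjusted p = 0.278). On the deposited RPM, Insig2 was at 0.11 with limma and 0.16 with edgeR on recovered reads. The difference between these changes was not tested. Srebf2, the transcription factor that mainly drives cholesterol genes, averaged 135 ± 5.90 CPM in KO and 132 ± 4.65 CPM in WT. Its sign was below 0 on RPM (log2 -0.05 with limma). Srebf1, which mainly drives fatty acid genes, averaged 29.9 ± 6.51 CPM in KO and 33.6 ± 3.27 CPM in WT. Scap averaged 47.6 ± 2.59 CPM in KO and 52.0 ± 6.13 CPM in WT (SD, n = 3 each).

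Among the 7 genes of the mevalonate and isoprenoid steps, 6 were lower in KO by sign and 1 higher, with a median log2 of -0.07, and none passed. Without WT library 3, 3 of these genes were below 0 and 4 above, with a median of 0.02. Without KO library 1 or WT library 2, 5 of these genes were below 0. Hmgcs1, which makes HMG-CoA, averaged 166 ± 9.87 CPM in KO and 174 ± 5.26 CPM in WT and was the most abundant of them. Idi1, which isomerises isopentenyl diphosphate, had 48.9, 38.0 and 52.8 CPM in KO libraries and 52.1, 54.6 and 57.4 CPM in WT libraries. On CPM only KO library 3 reached the WT range, and the log2 change was -0.21 ± 0.11 (SE; edgeR, unadjusted p = 0.0551, adjusted p = 0.405), or -0.11 without KO library 2. On RPM the Idi1 groups did not overlap (log2 -0.21 with limma). Pmvk, the phosphomevalonate kinase, was the member above 0, at 35.6 ± 3.94 CPM in KO and 31.6 ± 6.15 CPM in WT. Acat2 is the cytosolic thiolase before HMG-CoA, Mvk phosphorylates mevalonate, Mvd decarboxylates its diphosphate and Fdps makes farnesyl diphosphate. The log2 changes of Acat2, Mvk, Mvd and Fdps were between -0.09 and -0.03.

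All 11 genes from squalene to the final sterols had a log2 change below 0, with a median of -0.18 and a range from -0.40 to -0.00, and none passed the test. With reads recovered from RPM 9 of the 11 were below 0, and 10 of 11 with no filter on low counts or without KO library 2, KO library 3 or any 1 WT library. The lowest was Nsdhl, the sterol dehydrogenase of C4 demethylation, with 23.9, 25.3 and 17.9 CPM in KO libraries and 23.9, 30.04 and 32.97 CPM in WT libraries. The groups overlapped on CPM through WT library 1, and the log2 change was -0.40 ± 0.15 (SE; edgeR, unadjusted p = 0.0130, adjusted p = 0.238), or -0.25 without KO library 3. On RPM the Nsdhl groups did not overlap (log2 -0.38 with limma). Hsd17b7, the reductase that completes C4 demethylation, had 15.03, 12.2 and 10.3 CPM in KO libraries and 14.7, 16.4 and 17.8 CPM in WT libraries. Its KO library 1 lay just above the lowest WT library, and its log2 change was -0.38 ± 0.18 (SE; edgeR, unadjusted p = 0.0432, adjusted p = 0.367), or -0.24 without KO library 3. Dhcr7, which reduces 7-dehydrocholesterol to cholesterol, had 29.5, 38.0 and 31.4 CPM in KO libraries and 42.6, 37.7 and 39.2 CPM in WT libraries. The groups met on CPM at KO library 2 (log2 -0.29 ± 0.12; edgeR, unadjusted p = 0.0203, adjusted p = 0.280). On RPM the Dhcr7 groups did not overlap (log2 -0.30 with limma). Sc5d, the lathosterol desaturase, had 42.1, 37.1 and 37.9 CPM in KO libraries, all below the 46.3, 42.6 and 44.6 CPM of WT libraries, with a log2 change of -0.18 ± 0.10 (SE; edgeR, adjusted p = 0.495). On RPM the Sc5d groups overlapped, with a log2 change of -0.10 with limma and -0.06 with edgeR on recovered reads. Lss, the lanosterol synthase, was at 12.4 ± 2.12 CPM in KO and 15.7 ± 3.20 CPM in WT. Fdft1 and Sqle, which make and oxidise squalene, Cyp51, the lanosterol demethylase, Tm7sf2, a sterol reductase, Msmo1, the C4 methyl oxidase, and Ebp, the sterol isomerase, had log2 changes from -0.18 to -0.00. The smallest was that of Cyp51, at 52.2 ± 5.72 CPM in KO and 52.9 ± 4.18 CPM in WT (SD, n = 3 each).

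None of the 5 transport and removal genes passed, with 4 lower and 1 higher by sign. Stard4, a cytosolic sterol carrier, had the lowest log2 change of the 32 genes. It had 7.66, 10.96 and 12.3 CPM in KO libraries, against 15.03, 13.7 and 15.7 CPM in WT libraries. Every KO library was below every WT library, but the gene is among the least abundant of the set (log2 -0.53 ± 0.20; edgeR, unadjusted p = 0.0120, adjusted p = 0.232). Without KO library 1 its log2 change was -0.33. Cyp46a1, the neuronal cholesterol 24-hydroxylase, averaged 198 ± 7.47 CPM in KO and 205 ± 7.29 CPM in WT. Npc1 and Npc2, which export cholesterol from lysosomes, averaged 34.0 ± 2.12 and 75.6 ± 9.24 CPM in KO, and 34.6 ± 0.60 and 69.9 ± 4.08 CPM in WT. Abca1, which loads cholesterol onto apolipoproteins, averaged 11.6 ± 0.54 CPM in KO and 12.3 ± 0.57 CPM in WT (SD, n = 3 each).

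A list of 52 other lipid genes (lipogenesis, elongation, SREBP processing, lipoprotein receptors and carriers, sterol export and myelin lipids) gave the setting of the pathway. Of the 49 tested for abundance, 1 passed, and it was higher in KO, while by sign 33 were lower and 16 higher, with a median log2 of -0.03. It was Apoe, the main apolipoprotein of brain, with 1298, 1465 and 1358 CPM in KO libraries and 1184, 1004 and 1164 CPM in WT libraries (log2 0.30 ± 0.06; edgeR, adjusted p = 0.00853). Every KO library was above every WT library. Of the 49 other lipid genes, 9 had an unadjusted p under 0.05 for abundance (edgeR), where 12.9% of all genes had.

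No tail difference among the 32 genes passed the test in either direction. The fitted log2 change was below 0 for 20 genes and above 0 for 12, with a median of -0.01 (limma on log2 of mean tail + 1 nt). Over all 11323 genes tested the median was -0.02, 61.7% were below 0, and 0% passed the adjusted threshold, as did 0 of the 32. An unadjusted p under 0.05 was found for 2 of the 32 (6.25%), both shorter in KO, and for 6.55% of all genes. KO and WT libraries did not overlap for 5 genes shorter and 1 longer in KO, and over all genes 8.44% were of the first kind and 3.22% of the second. When each library was centred on its median, 14 of the 32 were below 0 with a median of 0.01. The median tail of the set was 138, 132 and 142 nt in KO libraries and 137, 141 and 141 nt in WT libraries. KO library 2 had the shortest tail among KO libraries for 24 of the 32 genes, against 46.8% of all genes, and without it the set's median log2 change was 0.00 with 14 genes below 0. The median over all genes was 142 ± 2.16 nt in KO and 145 ± 2.67 nt in WT (SD, n = 3 each). Per transcript, 27 of 44 were shorter and 17 longer by sign (58.8% of all transcripts were shorter), 0 passed (limma) and 2 had an unadjusted p under 0.05, as had 5.84% of 16168 transcripts.

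**Figure D3:**
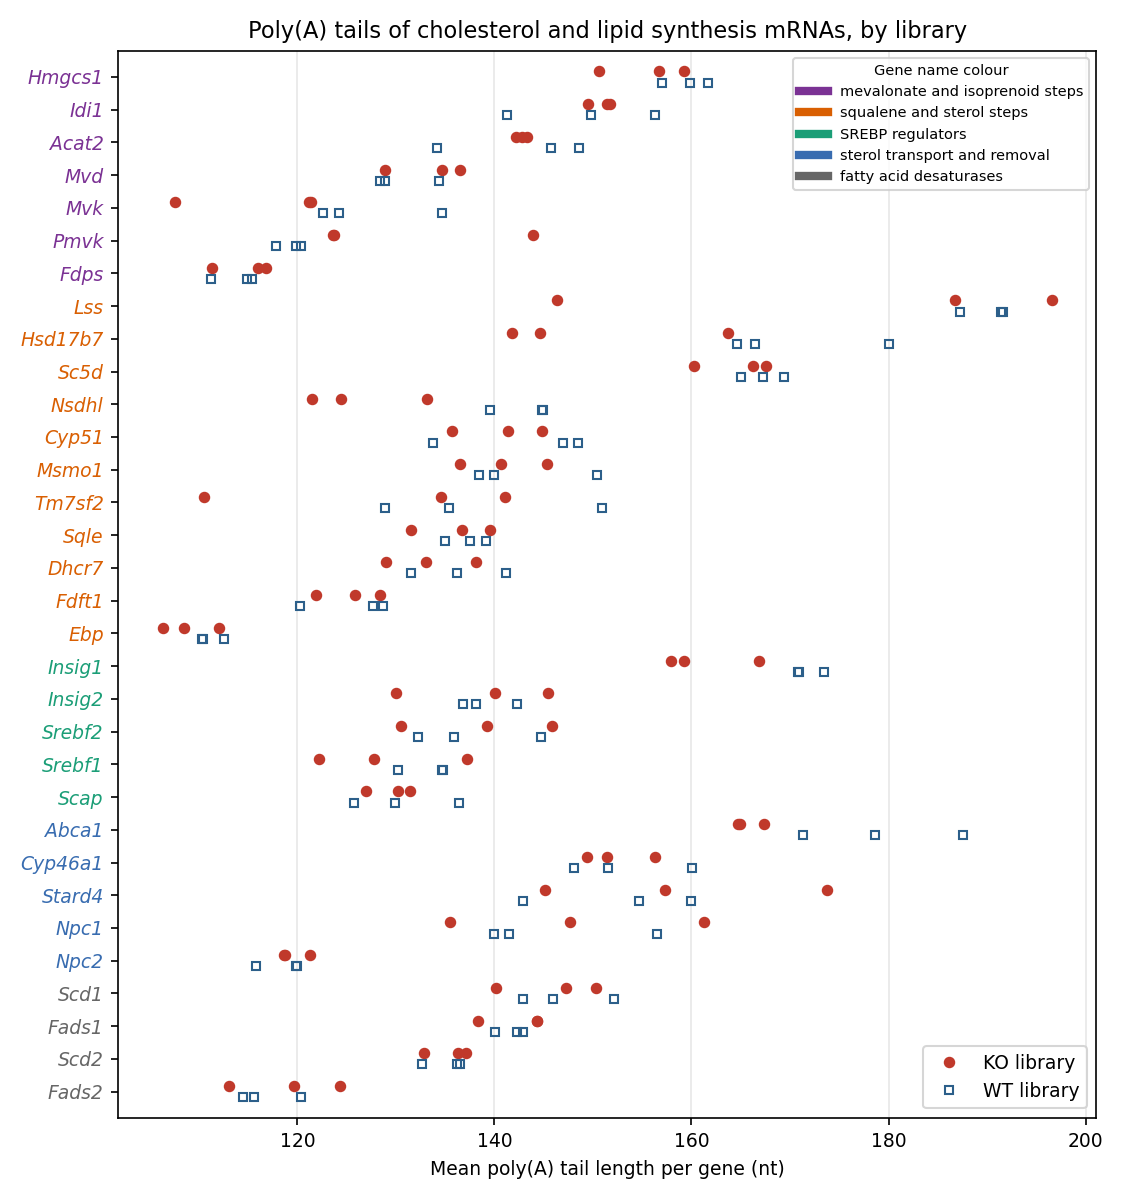
Mean poly(A) tail in nt of each gene in each library, with KO as filled circles above and WT as open squares below each other. Genes are grouped by role, shown by the colour of the name, and ordered by WT tail. Lss, Abca1 and Insig1 have the longest WT tails and Ebp and Fdps the shortest, and KO and WT points overlap for 26 of the 32 genes.

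The order of tails within the pathway was much the same in both genotypes (Spearman's rho = 0.924 across the 32 genes, between separate libraries). The longest WT tails belonged to Lss (190.1 ± 2.44 nt), Abca1 (179 ± 8.17 nt), Insig1 (172 ± 1.49 nt), Hsd17b7 (170.4 ± 8.43 nt) and Sc5d (167 ± 2.15 nt). The means of Insig1 and Hsd17b7 differed by less than the SD of Hsd17b7. The shortest belonged to Ebp (111 ± 1.27 nt), Fdps (114 ± 2.23 nt), Fads2 (117 ± 3.10 nt), Npc2 (119 ± 2.39 nt) and Pmvk (119 ± 1.36 nt), all SD over 3 WT libraries, and the last 3 differed by less than the SD of Fads2. The set lay somewhat on the short side, since 11 of the 32 WT tails were above the median of all genes. Lss was at percentile 94.6 of all genes by WT tail and Ebp at percentile 5.3. Between WT tail length and WT abundance Spearman's rho was -0.125 across the 32 genes and -0.31 across all 11323, both measures coming from the same reads.

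Nsdhl had the smallest p for tail length. Its tail was 124, 121 and 133 nt in KO libraries, against 145, 139.5 and 145 nt in WT libraries. Every KO library was below every WT library, and the difference of the means was -16.8 nt (log2 -0.18 ± 0.05; limma, unadjusted p = 0.00637, adjusted p = 0.701). Hsd17b7, the next step of the same demethylation, had 164, 145 and 142 nt in KO libraries and 165, 166 and 180.0 nt in WT libraries. The groups did not overlap, but KO library 1 was within 1 nt of WT library 1 (log2 -0.18 ± 0.07; limma, unadjusted p = 0.0333, adjusted p = 0.737). Insig1 had 167, 158 and 159 nt in KO libraries and 171, 173 and 171 nt in WT libraries, again without overlap (log2 -0.09 ± 0.04; limma, adjusted p = 0.789). The same stretch of Nsdhl and Insig1 is shown because these mRNAs had the smallest p for tail length and, apart from Scd1, for abundance. Capitals mark the poly(A) signal hexamer.
Nsdhl end (chrX:72958485-72958514, + strand): tgggggaaaataacaaagaAATAAAagcca
Insig1 end (chr5:28078633-28078662, + strand): ttttttacttttATTAAAggttcaaaacca

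Abca1 had 167, 165 and 165 nt in KO libraries and 179, 188 and 171 nt in WT libraries. KO was below WT throughout, with 239 reads in all behind the gene (log2 -0.11 ± 0.05; limma, adjusted p = 0.778). Mvk had 121, 108 and 121 nt in KO libraries and 135, 123 and 124 nt in WT libraries, with the closest KO and WT values about 1 nt apart (log2 -0.12 ± 0.06; limma, adjusted p = 0.792). Its log2 change was -0.07 without KO library 2 and -0.08 without WT library 1. Pmvk, which acts on the product of Mvk, went the other way by sign, with 124, 124 and 144 nt in KO libraries and 118, 120.4 and 119.9 nt in WT libraries. Its KO libraries were all above WT, library 3 by far the most (log2 0.12 ± 0.06; limma, adjusted p = 0.802), and without that library the log2 change was 0.05. Lss had 197, 146 and 187 nt in KO libraries and 187, 191 and 192 nt in WT libraries. The single low value, from the library with 25 Lss reads, put KO below WT, and without it the log2 change was 0.01. Tm7sf2 had 135, 111 and 141 nt in KO libraries and 135, 151 and 129 nt in WT libraries, and Srebf1 had 128, 122 and 137 nt in KO libraries and 130.2, 135 and 135 nt in WT libraries. Both overlapped, and without KO library 2 their log2 changes were -0.00 for Tm7sf2 and -0.01 for Srebf1.

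Scd1, the gene whose abundance fell, did not pass the tail test. It had 150.3, 140.1 and 147 nt in KO libraries and 143, 152 and 146 nt in WT libraries, which overlapped (log2 -0.01 ± 0.05; limma, adjusted p = 0.985). Its sign turned positive when libraries were centred (0.01) and without KO library 2 (0.02). Of the 5 genes with most reads, Scd2 averaged 135 ± 2.24 nt in KO and 135 ± 2.13 nt in WT. Cyp46a1 averaged 152 ± 3.58 nt in KO and 153 ± 6.19 nt in WT, and Hmgcs1 averaged 156 ± 4.43 nt in KO and 159.5 ± 2.32 nt in WT. Srebf2 averaged 139 ± 7.65 nt in KO and 138 ± 6.37 nt in WT, and Fads1 averaged 142 ± 3.46 nt in KO and 142 ± 1.52 nt in WT (SD, n = 3 each). Each of these differences was smaller than the larger SD of its pair of groups.

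By role, the 11 genes of the squalene and sterol steps were all below 0 in tail change, with a median log2 of -0.03 and none past the threshold, where 61.7% of all genes were below 0 with a median of -0.02. The count was 9 of 11 with centred libraries, 7 without KO library 2, 8 without WT library 3, and 10 without KO library 1, without WT library 2 or with read weights. Of the mevalonate genes 2 were below and 5 above 0, of the SREBP regulators 4 below and 1 above, of the transport genes 2 below and 3 above, and of the desaturases 1 below and 3 above. Across the 32 genes the log2 changes of tail and abundance had a Spearman's rho of 0.455, and across all 11323 genes 0.0571. Both measures come from the same reads and libraries, and genes are not independent replicates. For the 48 other lipid genes tested for tails, 26 were shorter and 22 longer by sign, 0 passed (limma) and 2 had an unadjusted p under 0.05.

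**Figure D4:**
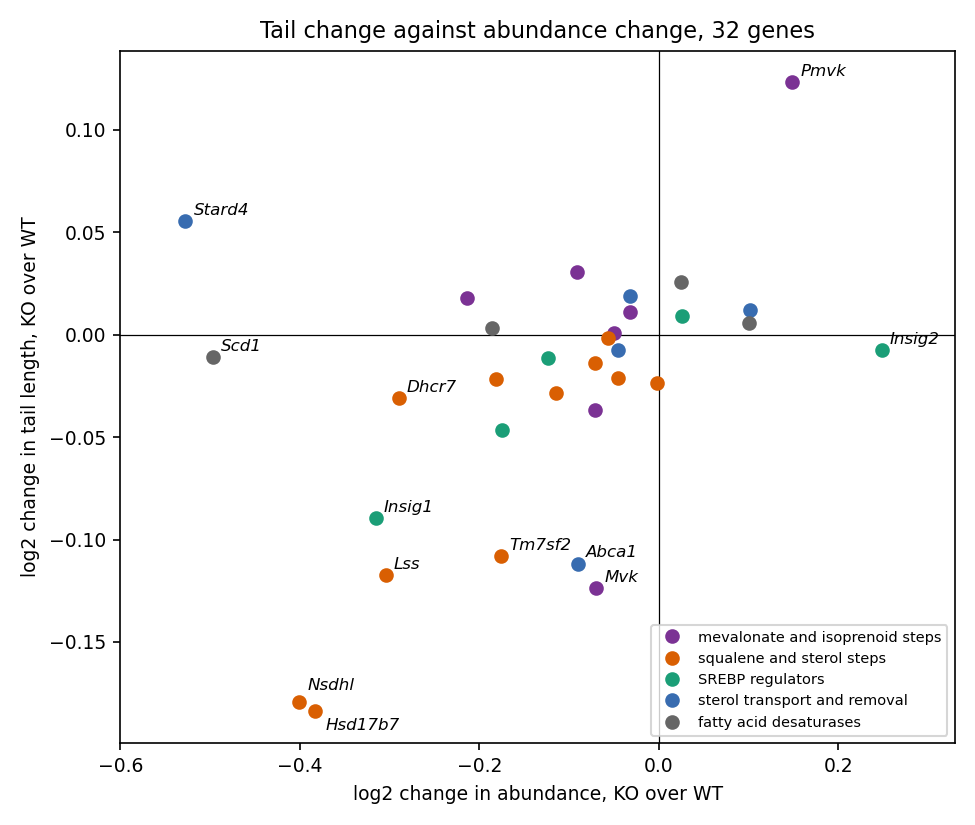
Log2 change in tail length against log2 change in abundance, KO over WT, for the 32 genes, coloured by role. Nsdhl and Hsd17b7 are lowest on the tail axis (both -0.18), Stard4 (-0.53) and Scd1 (-0.50) are farthest left, and Pmvk (0.12) is highest.

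Isoforms of a gene could be compared within the same library. In 11 of the 32 genes 2 or more transcripts had enough reads for the tail test, which gave 12 comparisons with the most read transcript. In Srebf2 a retained-intron transcript, ENSMUST00000230105.1, ended inside the gene and held 22.5%, 20.3% and 21.2% of the gene's reads in KO libraries and 20.6%, 19.7% and 18.04% in WT libraries. Its tail was 108, 113 and 112 nt in KO libraries and 113, 98.8 and 112 nt in WT libraries. The full-length coding transcript, ENSMUST00000023100.7, had 149, 135 and 154 nt in KO libraries and 137, 145 and 153 nt in WT libraries. The retained-intron form was shorter in 6 of 6 libraries, with a difference of -36.4 ± 10.1 nt (SD over 6 libraries). Of its last 20 annotated bases 60% are A, against 35% in the full-length form. Genome sequence past these ends was not used here, so an encoded run of A and a tail cannot be told apart for the retained-intron form. Both 3′ ends are shown because each carries its own poly(A) signal, in capitals.
Srebf2 retained-intron end (chr15:82173865-82173894, + strand): acctacatataacaataAATAAAtctttaa
Srebf2 full-length end (chr15:82205342-82205371, + strand): acgtaggttttcAATAAAcacagattggta
Retained or unproductive forms of Npc1 and Mvd had the longer tail. Noncoding forms of Msmo1 and Npc2 had fewer than 10 tail reads in some libraries and were not compared. A retained-intron transcript of Npc1 was longer than the coding one by 13.3 ± 9.34 nt, and a nonsense-mediated decay transcript of Mvd was longer than its coding one by 16.01 ± 13.1 nt, each in 6 of 6 libraries (SD over 6 libraries). In Lss, whose tail was the longest of the set, 73.6% of the reads were of a retained-intron transcript. The other 9 comparisons had mean differences between -11.2 and 6.04 nt, and none had the same sign in 6 of 6 libraries. Hmgcs1 split its reads nearly evenly between a pair of coding transcripts, with tails of 158 and 157 nt over the 6 libraries. No test was run on these comparisons.

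**Figure D5:**
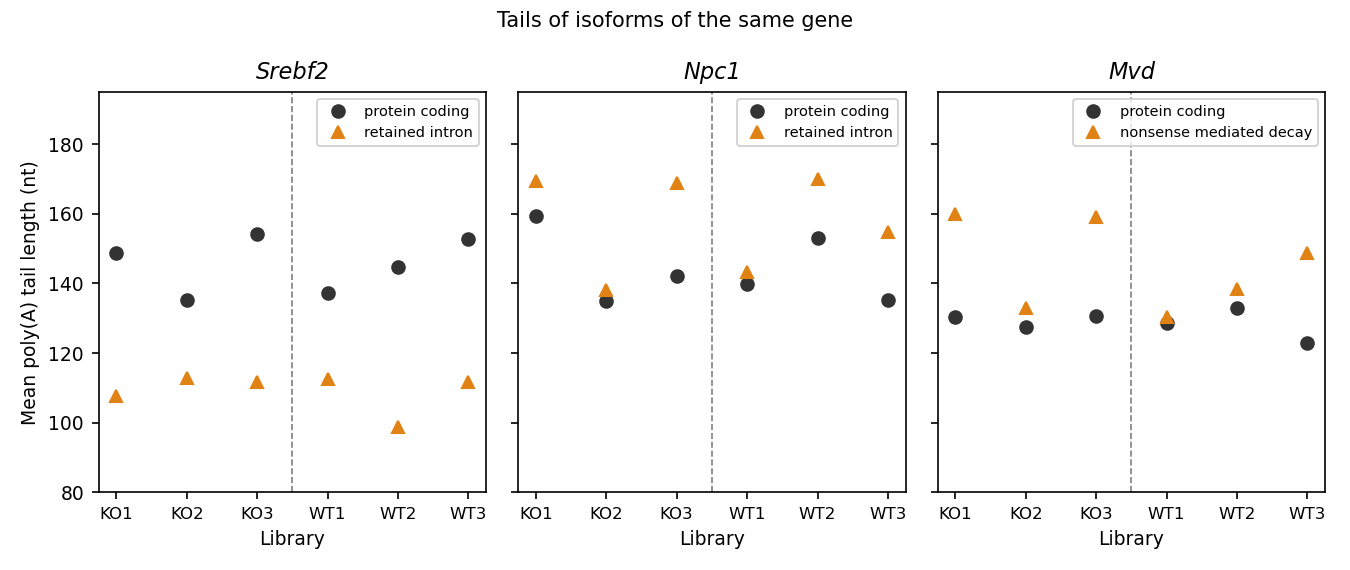
Mean poly(A) tail in nt of the most read transcript (circles) and a second transcript (triangles) of Srebf2, Npc1 and Mvd in each library, KO left of the dashed line and WT right. The Srebf2 retained-intron form lies below the coding form in all 6 libraries, while the second forms of Npc1 and Mvd lie above it.

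The rule for choosing the genes used symbols only, so their sequences could be compared with those of other genes. In the last 50 bases of the most read transcript, AATAAA was present in 26 of 32 genes, against 67.4% of 11129 genes searched, and AATAAA or ATTAAA in 30 of 32, against 82.2%. The cytoplasmic polyadenylation element, bound by CPEB1 and searched as TTTTAT or TTTTAAT on the sense strand of the last 150 bases, was in 7 of 32, against 24.1%. In Insig1 the TTTTAT overlaps the ATTAAA hexamer printed above.

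Promoters, from 250 bases before to 50 after a start in RefSeq on GRCm38.p6, were held for 24 of the 32 genes in 32 windows, all but Fads1, Fdft1, Fdps, Npc1, Scd1, Scd2, Sqle and Stard4. The CCAAT box bound by NF-Y, an SREBP partner, was found on either strand in 21 of 32 windows, against 37.4% of 32851 windows of all genes. The Sp1 box GGGCGG was in 27 of 32, against 35.7%, and the E-box CACGTG in 7 of 32, against 7.15%. A sterol regulatory element written as TCACNCCAC was in 1 window, that of Hmgcs1, against 1.24% of all windows. Printed below are the promoter with that element and those of the pair of genes just described, Insig1 and Nsdhl. Capitals mark the sterol element, the CCAAT box on either strand and the E-box.
Hmgcs1 promoter (chr13:119690101-119690400, + strand): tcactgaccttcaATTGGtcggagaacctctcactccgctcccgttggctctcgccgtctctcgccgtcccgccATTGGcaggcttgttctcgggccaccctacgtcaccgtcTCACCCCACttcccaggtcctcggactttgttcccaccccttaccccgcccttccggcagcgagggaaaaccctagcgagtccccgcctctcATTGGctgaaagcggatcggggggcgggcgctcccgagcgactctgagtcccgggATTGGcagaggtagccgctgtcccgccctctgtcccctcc
Insig1 promoter (chr5:28071162-28071461, + strand): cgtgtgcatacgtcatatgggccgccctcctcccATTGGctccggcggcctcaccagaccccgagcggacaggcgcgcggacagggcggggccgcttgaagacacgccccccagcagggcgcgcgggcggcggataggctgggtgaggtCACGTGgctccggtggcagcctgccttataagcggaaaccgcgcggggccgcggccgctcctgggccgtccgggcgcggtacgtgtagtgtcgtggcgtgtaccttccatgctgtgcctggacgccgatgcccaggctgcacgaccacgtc
Nsdhl promoter (chrX:72918271-72918570, + strand): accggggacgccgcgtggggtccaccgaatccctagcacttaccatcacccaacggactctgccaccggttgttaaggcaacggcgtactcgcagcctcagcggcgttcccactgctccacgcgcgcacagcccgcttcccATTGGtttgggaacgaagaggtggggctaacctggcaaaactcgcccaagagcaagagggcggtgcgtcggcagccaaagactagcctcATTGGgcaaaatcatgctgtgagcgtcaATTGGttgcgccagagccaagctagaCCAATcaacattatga
These matches describe the windows and are not binding data.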

How the data were processed

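Per the file headers, the deposited table gives for each transcript and library the mean poly(A) tail in nt, the count of reads behind it and an abundance in RPM, with the authors' log2 fold change and p-value. Named in the submitters' processing notes, with no role, are mm10, DESeq2, Salmon 1.5.2, SAMtools 1.9 and minimap2 2.17. For tail estimation no tool was given in the sources used here. Deposited RPM values were whole multiples of 1 read for 99.8% of values in WT library 1 and 100% in the others. Of the reads so recovered, 74.8% to 77.3% had a tail in KO and 76.2% to 85.0% in WT. Mouse GENCODE M21 held 97.6% of the transcripts.

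Libraries were grouped by title. Whether replicates are separate animals is not said in the labels, so p-values measure the spread between these samples, which may be technical. Replicate pairs differed by 1.24 to 2.05 chi-square units per degree of freedom over genes. Gene tails are means weighted by reads. Tails were tested as log2(nt + 1) with limma 3.58.1 (variance trend, at least 10 tail reads in each library), and counts with edgeR 4.0.16 (TMM, filterByExpr, quasi-likelihood), both on the whole table in R 4.3.3. Alternatives were DESeq2 1.42.0, its size factors, other read minimums, weights, centring, RPM, recovered reads, the replicate block and leaving out each library. P-values were adjusted by Benjamini-Hochberg with a threshold of 0.05. On simulated data, 75% of genes changed 1.5-fold in abundance among 12543 and 33% of genes changed 1.19-fold in tail among 11323 were recovered. At 2-fold and 1.41-fold, 97% and 93% were. The genes changed in abundance were drawn only from those with more reads, so the abundance rates do not cover the genes with fewest reads. Among unchanged genes 13 were called for abundance and 5 for tail.

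The genes and lists were chosen with earlier results of these data known. Genes given in full were those past the threshold in any test, the 10 smallest p-values for tail and for abundance, the 5 longest and 5 shortest WT tails and the 5 with most reads. From the other lipid genes, those past the threshold were named. Fads1 and other genes outside this rule were named for their role or because their groups did not overlap, after their values were seen.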

Additional observations from a re-analysis of the deposited data

How the results depend on the processing

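The direction of the Scd1 abundance change was the same under every alternative run. Calls over all genes for abundance numbered 129 and became 62 with DESeq2 (57 shared), 249 with no filter on low counts and 40 with limma on log2(RPM + 1), and spanned 57 to 206 when libraries were left out in turn. Called genes of the set numbered 0 with limma on RPM and 0 to 1 when libraries were left out. For transcripts the 103 calls became 28 with DESeq2, 180 with no filter, 34 with limma on RPM, 171 with the replicate block and 44 to 163 when libraries were left out. Of the set's transcripts, 0 were called with DESeq2, 0 with limma on RPM and 0 to 1 when libraries were left out. Weighting tails by reads called 28 genes and 22 transcripts, 0 of them in the set. The tail change of Scd1 was 0.0098 after centring and spanned -0.033 to 0.018 when libraries were left out, and that of Lss spanned -0.200 to 0.011. The causes of these shifts were not tested.

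Libraries share a replicate number across genotypes, but deviations of same-numbered libraries correlated by at most 0.0506, so the numbers were not taken to pair them, and not every library correlated best with its own number. With the replicate block the abundance calls were 92 genes and the tail calls 0. DESeq2 gave an adjusted p for 11 of the 32 genes. Depth limits the rarest genes, whose mean tail in a library rests on as few as 25 reads. A small tail change, such as the lesser of those simulated, would often be missed.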
